A study of Mus musculus with 6 samples.

Results

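Imprinted growth regulators are genes of which the embryo reads mainly 1 parental copy and whose products set how fast it grows. The genes described here are H19, Igf2, Igf2r, Peg3, Mest, Cdkn1c, Grb10, Dlk1, Meg3 and Plagl1. Their probe sets were taken from the array's annotation by symbol, with each probe set counted if its annotation gave exactly 1 symbol and that symbol was on the list. A probe set pools several short probes for a transcript into a single signal. The rule found 30 probe sets, of 45037 on the array once controls were set aside, for 9 of the 10 genes listed and of 18194 genes named in this way. H19 had no probe set of its own under this rule. The annotation gave 2 further probe sets a second symbol, 1 shared by H19 and Mir675 and 1 by Igf2r and Airn, and both were left out of the members.

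The samples were whole mouse embryos at embryonic day 8.5, when the neural folds are closing and the yolk sac is the site of exchange with the mother. They were 3 wild-type embryos and 3 littermates heterozygous for Tcof1 (Tcof1+/-), 1 embryo per Affymetrix Mouse Genome 430 2.0 array. Tcof1 encodes treacle, a nucleolar protein of ribosomal RNA synthesis whose loss on 1 chromosome copy causes Treacher Collins syndrome in humans. All embryos were otherwise untreated as far as the labels say, and the strain, the structure of the mutated allele and the parent that passed it on are not stated in the labels, nor is the number of litters. The question put to these genes was how much they varied from embryo to embryo and whether loss of 1 Tcof1 copy altered them.

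In imprinted genes DNA methylation laid down in egg or sperm marks the control region of 1 parental copy, and depending on the gene the marked copy is the silent or the active one. Genes read from the paternal copy tend to promote growth and those read from the maternal copy tend to restrain it, and H19 and Igf2, and likewise Dlk1 and Meg3, are neighbours read from opposite copies. The array measures the total transcript of both copies and does not tell them apart. The parental class of the listed growth regulators therefore comes from what is known of each gene in mouse embryos.

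By position the genes fall into a few domains, given here on GRCm38.p6 as RefSeq lists the genes. H19 (chr7:142575530-142578146), Igf2 (chr7:142650768-142666816) and Cdkn1c (chr7:143458339-143461059) lie on distal chromosome 7, and Peg3 (chr7:6703892-6730462) lies near the other end. Dlk1 (chr12:109452485-109463336) and Meg3 (chr12:109540996-109571729) are neighbours on chromosome 12. Mest (chr6:30733506-30748466), Plagl1 (chr10:13090832-13131694), Grb10 (chr11:11930499-12037428) and Igf2r (chr17:12682406-12769706) lie apart. H19 and Meg3 are long non-coding RNAs and the others encode proteins.

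The Mir675 hairpin (chr7:142577064-142577147, minus strand) lies inside H19, which is why the H19 probe set carried both symbols. Its mature forms are shown for that reason, written 5′ to 3′ from RefSeq with the seed, bases 2 to 8, in capitals; the array gave no separate value for them.
miR-675-5p: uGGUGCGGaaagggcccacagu
miR-675-3p: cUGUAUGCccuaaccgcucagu
The probe set annotated to both H19 and Mir675 gave signals of 5340, 6423 and 6054 in wild-type embryos 1, 2 and 3 and 6350, 6188 and 5914 in Tcof1+/- embryos 1, 2 and 3. The genotypes overlapped, and the log2 difference was 0.05 (SE 0.07, limma adjusted p = 0.912). This value belongs to the probe set and was not counted for H19.

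Promoter windows of 300 bases, from 250 before to 50 after each transcript start, were held by the RefSeq table (GRCm38.p6) for 8 of the genes, in 15 windows. The CpG dinucleotide, the site of DNA methylation, occurred 1 to 45 times in these windows with a median of 13, against a median of 7 over all 32851 windows in the table, and 12 of the 15 lay above that median. The highest counts were 45 in a window of Grb10, 34 in that of Igf2r and 26 in that of Plagl1. The letters GGGGCCCC, which read the same on both strands and which Plagl1 protein is known to bind, occurred in 1 of the 15 windows, that of Peg3, and in 1.08% of all windows. A match in letters is a description and not a binding site. Of the genes with several windows, Igf2 ranged from 2 to 24 CpG and Meg3 from 1 to 13. The promoters of Peg3, which held the member probe set with the smallest p below, and of the neighbours Dlk1 and Meg3 are shown 5′ to 3′ with each CpG in capitals. They lie at chr7:6730370-6730669 (minus strand, 13 CpG), chr12:109452573-109452872 (plus strand, 9 CpG) and chr12:109540746-109541045 (plus strand, 13 CpG). The Dlk1 window lies wholly inside the gene as positioned above, because its transcript start is downstream of the gene's listed start.
Peg3: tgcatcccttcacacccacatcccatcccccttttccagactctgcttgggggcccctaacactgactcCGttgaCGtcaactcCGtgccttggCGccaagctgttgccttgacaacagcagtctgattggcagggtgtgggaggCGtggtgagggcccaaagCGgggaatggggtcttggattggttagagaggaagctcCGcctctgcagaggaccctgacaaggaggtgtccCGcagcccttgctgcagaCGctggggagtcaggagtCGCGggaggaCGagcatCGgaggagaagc
Dlk1: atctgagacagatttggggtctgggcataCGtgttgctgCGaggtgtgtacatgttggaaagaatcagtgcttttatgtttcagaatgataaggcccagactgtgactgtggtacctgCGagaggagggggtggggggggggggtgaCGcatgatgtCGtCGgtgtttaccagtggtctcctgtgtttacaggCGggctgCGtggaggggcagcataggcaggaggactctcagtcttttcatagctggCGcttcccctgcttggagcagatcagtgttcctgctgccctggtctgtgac
Meg3: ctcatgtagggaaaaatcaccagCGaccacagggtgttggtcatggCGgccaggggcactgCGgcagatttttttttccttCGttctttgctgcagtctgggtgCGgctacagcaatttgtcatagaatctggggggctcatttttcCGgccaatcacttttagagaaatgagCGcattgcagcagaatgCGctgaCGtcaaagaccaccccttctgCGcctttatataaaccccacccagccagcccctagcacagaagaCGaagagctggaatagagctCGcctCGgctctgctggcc

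The deposited signals are linear and in arbitrary units, and each array had been brought to the same trimmed mean of 150 by the authors. A probe set counted as above background on an array when it exceeded the brightest of 27 unspiked bacterial controls there, which lay at 8.55 to 13.5. Pearson correlations of the 15 pairs of arrays, over log2 signals, were 0.962 to 0.972. Replicates 1 and 2 of both genotypes were scanned on the first of 2 days and replicate 3 of both on the second. The targeted gene was lower in heterozygotes on its brightest probe set, at 387 ± 5.89 against 211 ± 27.7 (SD, n = 3 per genotype; limma adjusted p = 0.0347), a call lost in a fit with no intensity trend, where no probe set was called. Its other 2 probe sets were lower too, at log2 differences of -0.70 and -0.61, and did not pass (limma adjusted p = 0.333 and 0.556). The embryo's own tissues were present, with markers above background on all arrays for 14 of 16 neural, 16 of 16 heart and 12 of 15 somite genes. Neural markers summed to 3070 to 3347 in wild types and 2114 to 2870 in Tcof1+/- embryos, with all 14 tested lower and 10 of them at an unadjusted p under 0.05, though none passed in limma; their part in the values below was not tested. Of 14 trophoblast markers on the array 8 were above background on all arrays, among them Plac1 (128 to 207 over the 6 embryos), Rhox5 (154 to 969) and Elf5 (20.6 to 42.6). Tpbpa, Prl4a1 and Ctsq of that list were not above background on any array. Of maternal decidua markers 12 of 15 were above background on all arrays, and Gzme and Gzmf were not on any. The decidua markers tested summed to 5045 to 5885 in wild types and 5094 to 5435 in Tcof1+/- embryos. Extraembryonic mesoderm, allantois and amnion markers were above background on all arrays for 13 of 14 genes. Their sum was 7526 to 8273 in wild types and 7383 to 10046 in Tcof1+/- embryos, highest in Tcof1+/- embryo 1. Endothelial markers were above background on all arrays for 14 of 16 genes. In Tcof1+/- embryos 13 of 16 tested heart, 10 of 15 endothelial, 7 of 10 trophoblast and 10 of 13 extraembryonic mesoderm markers were higher. Of tested somite markers 10 of 14 were lower, as were 7 of 12 of decidua. Unadjusted p in limma was under 0.05 for 4 somite, 2 heart and 2 endothelial markers, and none passed. In whole embryos, fewer cells of a type and less RNA per cell cannot be told apart.

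Yolk sac endoderm markers differed widely between embryos, and the genotypes overlapped. The summed signal of its 18 markers was 3212 to 12400 in wild types and 2040 to 19686 in Tcof1+/- embryos. Afp, the fetal serum protein of yolk sac endoderm, gave 321, 2050 and 1371 in wild-type embryos 1, 2 and 3 and 2770, 113 and 1792 in Tcof1+/- embryos 1, 2 and 3. Wild-type embryo 1 and Tcof1+/- embryo 2 were low and Tcof1+/- embryo 1 was high. Rhox5, listed above as a trophoblast marker, went the same way in these embryos, at 154, 247 and 969. Which tissue gave the Rhox5 signal was not tested. The summed signal of 11 primitive erythroid markers was 6132 to 14196 in wild types and 553 to 11634 in Tcof1+/- embryos, lowest in Tcof1+/- embryo 1. All 11 were lower in Tcof1+/- embryos, with a median log2 difference of -0.93; 2 had an unadjusted p under 0.05 and none passed in limma. Imprinted genes are known to be strongly expressed in extraembryonic tissue, and the part of these tissues in the values below was not tested.

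None of the 27 member probe sets that were tested passed in the comparison of Tcof1+/- with wild-type embryos. The fit was limma on the log2 scale over 27022 probe sets with Benjamini-Hochberg adjustment at 0.05, in which 22 probe sets (0.0814%) were called, 21 of them higher (0.0777%). Adjusted p of the members ran from 0.305 to 0.995. At an unadjusted p under 0.05 there were 2 members of 27, where 6.19% of all tested probe sets were. The genotypes did not overlap on 2 members, a share of 7.41%, where 12.2% of all tested probe sets did not overlap; 5.98% did so with the heterozygotes higher, as on both members. Of the 27, 19 were higher and 8 lower, with a median log2 difference of 0.11 against 0.0049 over all tested probe sets, of which 51.0% were higher. Without wild-type embryo 1 the members' median was 0.05. Within the first scan day 20 of 27 were higher with a median of 0.21, and within the second 14 of 27 with a median of 0.0079. The 27 are not independent, since 11 belong to Meg3 alone. With 1 probe set per gene, the one with the highest mean, 7 of 9 genes were higher and 2 lower, with a median of 0.09. Under quantile normalization 6 of 9 were higher, because Mest turned to -0.02.

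Standard errors of the members ranged from 0.05 to 0.41, so that what could be seen differed between genes. The 3 probe sets that were not tested lay in the dimmest 40%. They were 2 of Peg3, not above background on any array, and 1 of Plagl1, above it on 1 array.

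**Figure D1:**
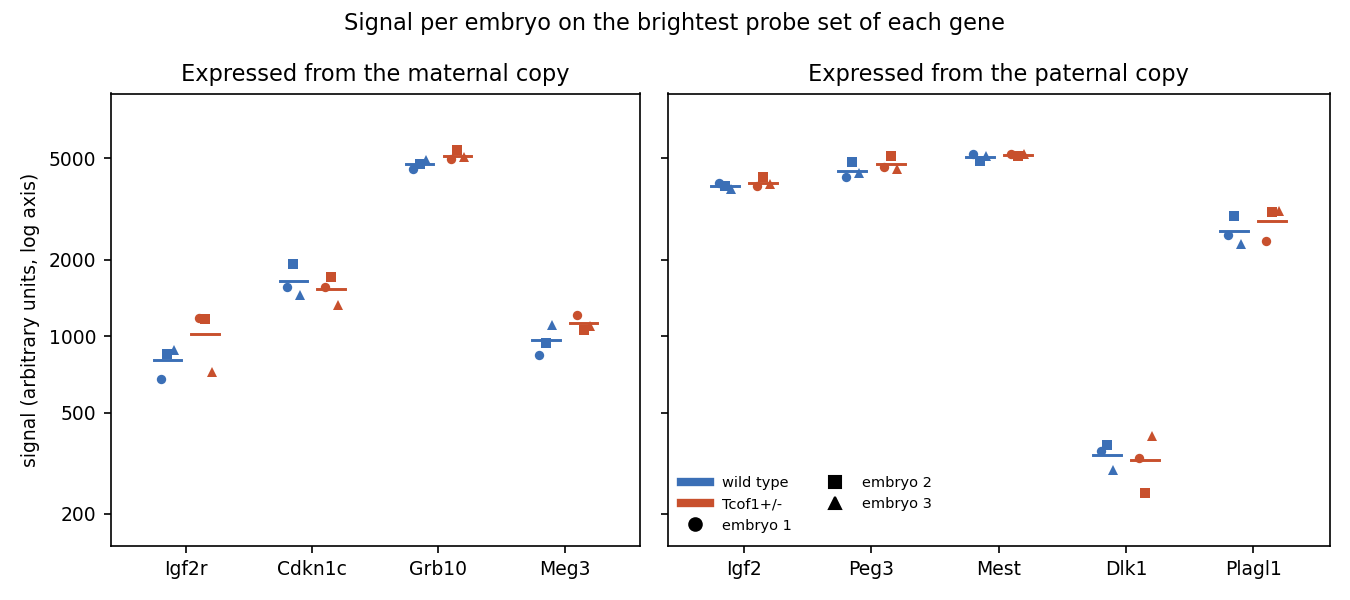
Signal in arbitrary units (log axis) on the brightest probe set of each gene, with maternally expressed genes on the left and paternally expressed genes on the right. Each point is 1 embryo, with the symbol giving its replicate number, and bars are genotype means; only Grb10 has no overlap between genotypes, and levels of different genes are not comparable because probe sets differ in how they bind.

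The growth factor and its receptors come first. Igf2, insulin-like growth factor 2, is the main fetal growth factor and is read from the paternal copy. Its bright probe set gave 3996, 3881 and 3780 in wild-type embryos 1, 2 and 3 and 3882, 4218 and 3950 in Tcof1+/- embryos 1, 2 and 3. All 6 embryos lay within 1.12-fold of each other and the genotypes overlapped. The log2 difference was 0.05 (SE 0.06, limma adjusted p = 0.906), and its 95% interval corresponds to 0.947 to 1.13 of the wild-type level. The second Igf2 probe set was far dimmer, at 27.9 to 65.5 in wild types and 24.3 to 51.0 in Tcof1+/- embryos, and its difference of -0.25 had a standard error of 0.35.

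Igf2r, the receptor that takes up Igf2 for degradation and so lowers it, is read from the maternal copy. Its brighter probe set gave 681, 851 and 879 in wild-type embryos 1, 2 and 3 and 1178, 1172 and 721 in Tcof1+/- embryos 1, 2 and 3. Tcof1+/- embryos 1 and 2 stood above all wild types, whereas Tcof1+/- embryo 3 lay within them. The log2 difference was 0.32 (SE 0.18, limma adjusted p = 0.825). Between the 4 embryos scanned first it was 0.62, and between the 2 scanned later -0.28. Without Tcof1+/- embryo 3 it was 0.56 (limma adjusted p = 0.407).
The dimmer probe set of Igf2r followed the same embryos, with 206, 254 and 240 in wild types and 262, 292 and 206 in Tcof1+/- embryos (log2 difference 0.11, SE 0.15). The probe set shared by Igf2r and Airn, the antisense RNA that silences the paternal Igf2r copy, gave 6.23 to 21.2 and was above background on 3 of 6 arrays.

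Grb10, an adaptor that dampens insulin and Igf receptor signalling, is read from the maternal copy in most tissues and from the paternal copy in neurons. Its bright probe set gave 4538, 4771 and 4922 in wild-type embryos 1, 2 and 3 and 4967, 5391 and 5042 in Tcof1+/- embryos 1, 2 and 3. Every Tcof1+/- embryo lay above every wild type, though by a small margin. The log2 difference was 0.11 (SE 0.06, limma adjusted p = 0.811), or 0.991 to 1.18 of the wild-type level by its 95% interval. Within scan days it was 0.15 (first) and 0.03 (second). The dimmer Grb10 probe sets pointed the other way, at -0.26 (SE 0.18) and -0.13 (SE 0.21), with signals of 60.8 to 101 and 37.1 to 53.1 over the 6 embryos.

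Cdkn1c, the cyclin-dependent kinase inhibitor p57, stops cell division and is read from the maternal copy. It gave 1568, 1913 and 1454 in wild-type embryos 1, 2 and 3 and 1567, 1712 and 1327 in Tcof1+/- embryos 1, 2 and 3. The genotypes overlapped, with replicate 2 high and replicate 3 low in both. It differed by a log2 of -0.10 (SE 0.12, limma adjusted p = 0.909), or 0.777 to 1.12 of the wild-type level by its 95% interval.

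Mest, a membrane protein of the alpha/beta hydrolase family also called Peg1, is read from the paternal copy in mesoderm. It gave 5213, 4897 and 5108 in wild-type embryos 1, 2 and 3 and 5182, 5132 and 5210 in Tcof1+/- embryos 1, 2 and 3. These 6 values lay within 1.06-fold of each other, the narrowest range of the 27 tested member probe sets. Genotypes differed by a log2 of 0.03 (SE 0.05, limma adjusted p = 0.932), with an interval of 0.945 to 1.10 of the wild-type level.

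Peg3, a large zinc finger protein of the paternal copy, had the member probe set with the smallest p. Probe set 1417356_at gave 129, 138 and 148 in wild-type embryos 1, 2 and 3 and 212, 192 and 227 in Tcof1+/- embryos 1, 2 and 3. All Tcof1+/- embryos lay above all wild types. The log2 difference was 0.59 (SE 0.12, 95% interval 0.32 to 0.87), and the limma adjusted p was 0.305 with an unadjusted p of 7.34e-04, so it did not pass. Within scan days it was 0.59 (first) and 0.61 (second, with 1 embryo per genotype). Leaving out any 1 array gave 0.54 to 0.66, with limma adjusted p of 0.375 to 0.750. The probe set is singled out here by its small p, so how closely these values lie together is a description only.

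The brighter Peg3 probe sets gave smaller estimates. Probe set 1433924_at gave 4213, 4824 and 4366 in wild types and 4609, 5090 and 4552 in Tcof1+/- embryos, a log2 difference of 0.09 (SE 0.07, 95% interval -0.06 to 0.24). Probe set 1417355_at gave 1817, 2228 and 2102 in wild types and 2197, 2459 and 2114 in Tcof1+/- embryos, a difference of 0.14 (SE 0.09, 95% interval -0.06 to 0.34). Both overlapped between genotypes. The interval of 1433924_at lies below that of the dim probe set, 0.32 to 0.87, and the interval of 1417355_at overlaps it slightly. Whether the Peg3 probe sets differ from each other was not tested. The files do not give where each probe set lies on the Peg3 transcript.

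Plagl1, also called Zac1, is a zinc finger transcription factor of the paternal copy known to regulate other imprinted genes. Its bright probe set gave 2498, 2968 and 2295 in wild-type embryos 1, 2 and 3 and 2365, 3083 and 3098 in Tcof1+/- embryos 1, 2 and 3. The genotypes overlapped, with a log2 difference of 0.14 (SE 0.12, limma adjusted p = 0.876). Within scan days it was -0.01 (first) and 0.43 (second). The ending of its name, _x_at, marks a probe set in which some probes may also bind other transcripts. The dimmer tested probe set gave 31.9 to 59.3 in wild types and 30.1 to 56.3 in Tcof1+/- embryos.

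Dlk1, a transmembrane protein related to Notch ligands, is read from the paternal copy. Its bright probe set gave 354, 372 and 297 in wild-type embryos 1, 2 and 3 and 332, 241 and 404 in Tcof1+/- embryos 1, 2 and 3. The lowest and the highest value both belonged to Tcof1+/- embryos. Genotypes differed by a log2 of -0.09 (SE 0.18, limma adjusted p = 0.942), with -0.36 within the first scan day and 0.44 within the second. The other Dlk1 probe set gave 10.4 to 27.3 and was above background on 5 of 6 arrays.

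Meg3, the non-coding RNA read from the maternal copy beside Dlk1, was measured by 11 probe sets, all tested. The brightest, 1439380_x_at, gave 841, 942 and 1102 in wild-type embryos 1, 2 and 3 and 1207, 1061 and 1097 in Tcof1+/- embryos 1, 2 and 3. Like that of Plagl1 its name ends in _x_at, so some of its probes may also bind other transcripts. Wild-type embryos 1 and 2 were lowest and wild-type embryo 3 lay among the heterozygotes. The log2 difference was 0.23 (SE 0.11, 95% interval -0.01 to 0.46, limma adjusted p = 0.799).
Probe set 1452905_at gave 477, 773 and 847 in wild types and 910, 801 and 814 in Tcof1+/- embryos, with wild-type embryo 1 well below the other 5. The largest Meg3 difference was 0.53 (SE 0.20, limma adjusted p = 0.768) on 1452906_at, where the signals were 65.3, 78.8 and 51.2 in wild types and 110, 78.2 and 95.8 in Tcof1+/- embryos. The genotypes overlapped there as well, by wild-type embryo 2 and Tcof1+/- embryo 2.

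Over the 11 Meg3 probe sets, 9 were higher and 2 lower in Tcof1+/- embryos, with differences from -0.33 to 0.53 and a median of 0.25. None passed, and 1 had an unadjusted p under 0.05 in limma. Wild-type embryo 1 was the lowest embryo on 6 of the 11 and Tcof1+/- embryo 1 the highest on 7. The yolk sac marker sum was 3212 in wild-type embryo 1, 19686 in Tcof1+/- embryo 1 and 2040 in Tcof1+/- embryo 2, where the median Meg3 deviations from the mean of the 6 embryos were -0.24, 0.22 and 0.04. The part of yolk sac tissue in the Meg3 values was not tested. Without wild-type embryo 1 the median Meg3 difference was 0.06. Within the first scan day it was 0.35 with 10 of 11 higher, and within the second -0.0064 with 5 of 11 higher. Rian is a non-coding RNA read from the same chromosome copy downstream of Meg3. It was at 424 ± 36.6 in wild types and 514 ± 66.8 in Tcof1+/- embryos (SD, n = 3). Its log2 difference was 0.27 (SE 0.12, limma adjusted p = 0.799), and the genotypes overlapped. Mirg, another maternally expressed gene, was dimmer, at 44.0 ± 9.87 and 42.6 ± 8.09 (log2 difference -0.04, SE 0.24, limma adjusted p = 0.981).

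**Figure D2:**
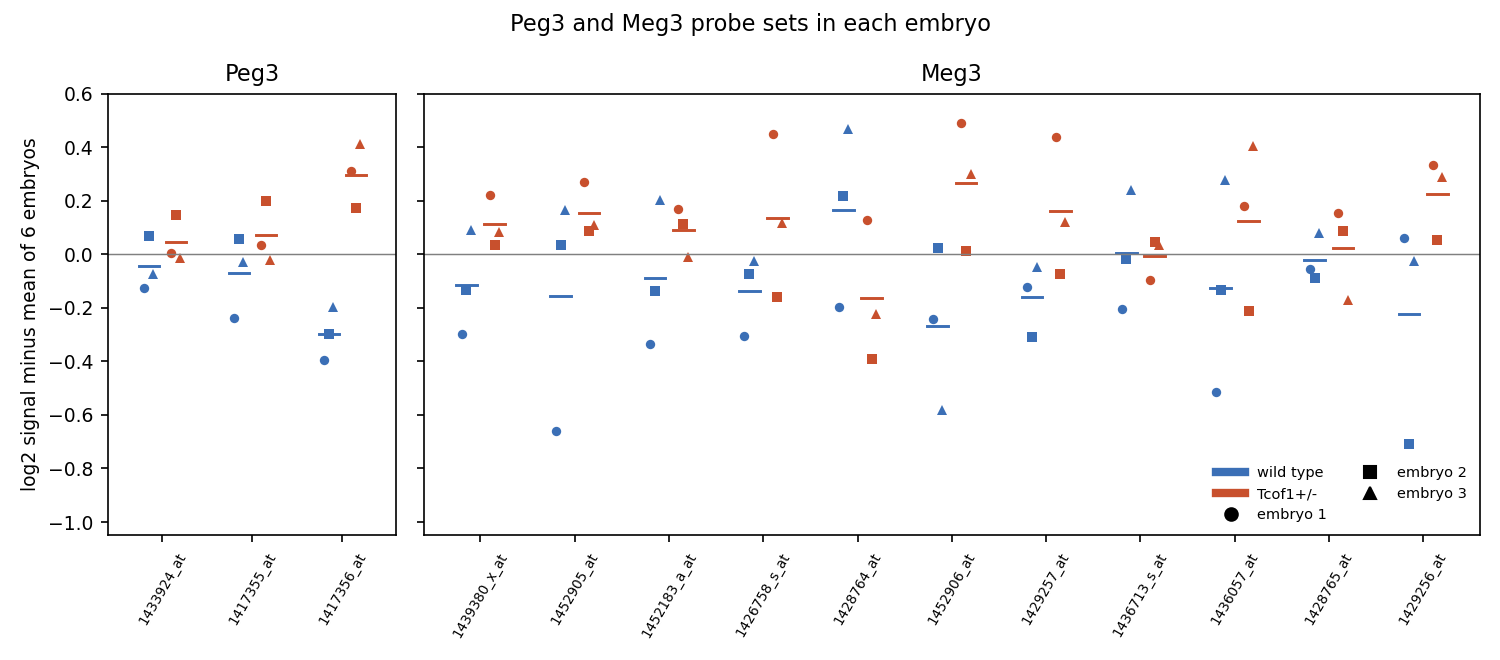
Log2 signal of each tested Peg3 probe set (left) and Meg3 probe set (right) in each embryo, relative to the mean of the 6 embryos; bars are genotype means and probe sets run from bright to dim. On Peg3 only 1417356_at separates the genotypes, and on Meg3 wild-type embryo 1 is the lowest embryo on 6 of 11 probe sets.

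**Figure D3:**
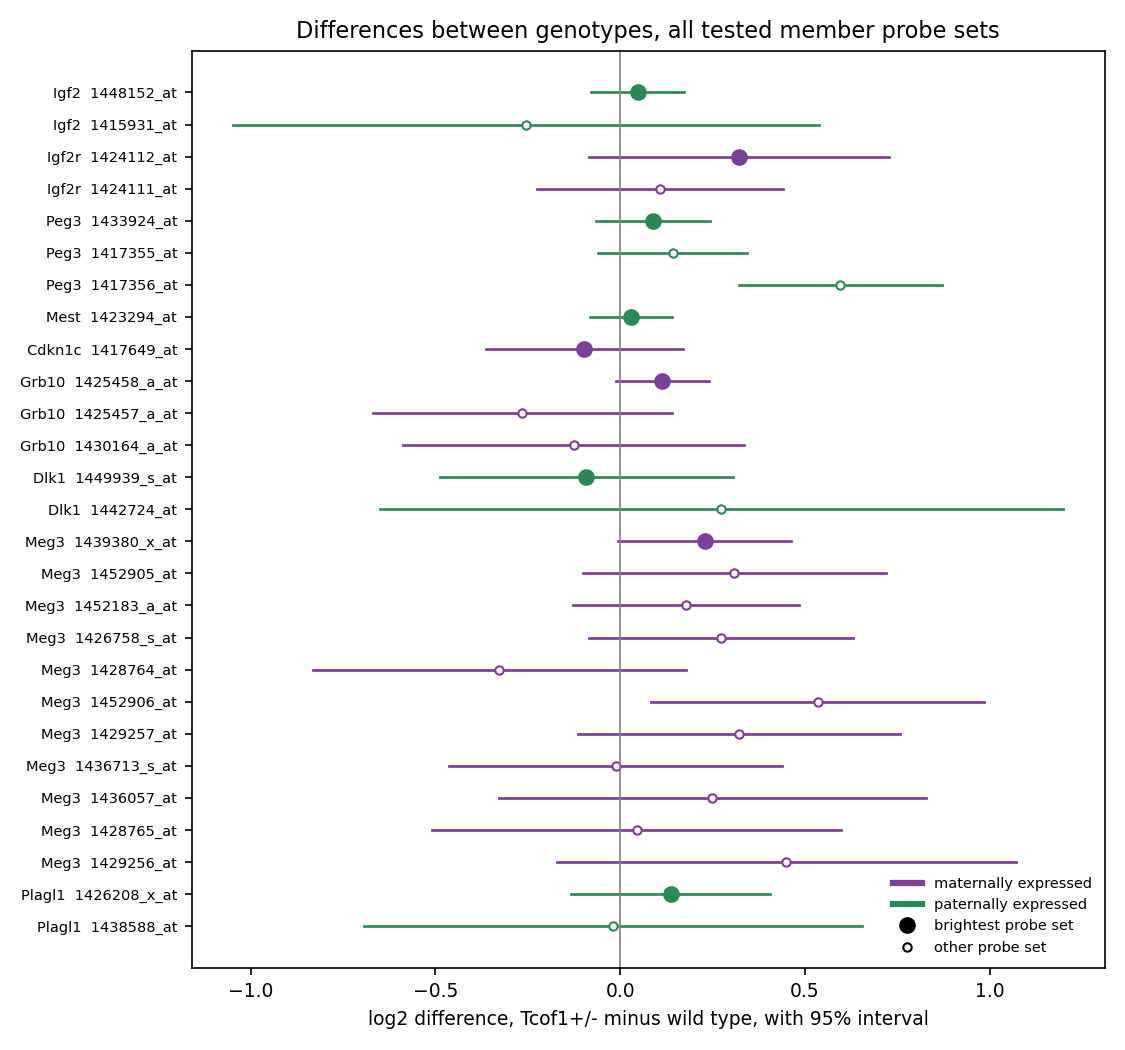
Log2 difference, Tcof1+/- minus wild type, with its 95% interval from limma for the 27 tested member probe sets; large filled circles are the brightest probe set of each gene. The interval excludes 0 on Peg3 1417356_at and Meg3 1452906_at, with no adjustment for the number of probe sets tested.

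Spread between embryos was small for the brightest members and larger for Igf2r, Dlk1, Plagl1 and Cdkn1c. Within-genotype SD on the log2 scale was 0.03 for Mest, 0.05 for Igf2, 0.06 for Grb10 and 0.09 for Peg3 on their brightest probe sets. It was 0.15 for Meg3, 0.20 for Cdkn1c, 0.21 for Plagl1, 0.29 for Dlk1 and 0.32 for Igf2r. Since dim probe sets vary more, each has to be read beside others of like brightness. Over the 2442 tested probe sets with a mean signal over 1000 the median SD was 0.09, against 0.11 over the 8 members among them. Between 100 and 1000 it was 0.14 over 10155 probe sets, against 0.24 over 7 members. Below 100 it was 0.35 over 14425 probe sets, against 0.29 over 12 members.

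**Figure D4:**
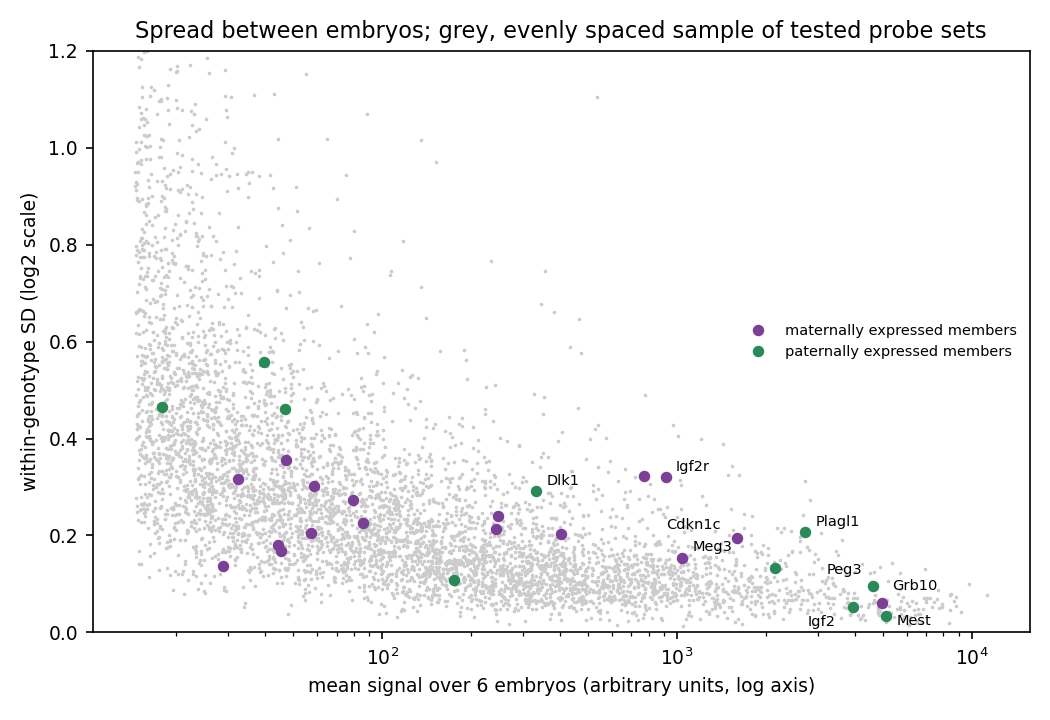
Within-genotype SD of log2 signal against mean signal (log axis) for the 27 tested member probe sets, coloured by parental class, and for an evenly spaced sample of all tested probe sets in grey; SDs over 1.2 are not drawn. Mest, Igf2 and Grb10 lie at 0.03 to 0.06, and Igf2r and Dlk1 lie above most grey points of like brightness, at 0.32 and 0.29.

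By parental class, neither group passed on any probe set in limma. Of 17 tested probe sets of maternally expressed genes 12 were higher and 5 lower, with a median of 0.18 and 1 at an unadjusted p under 0.05. Meg3 alone gave 11 of these 17, of which 9 were higher and 2 lower. Of 10 of paternally expressed genes 7 were higher and 3 lower, with a median of 0.07 and 1 at an unadjusted p under 0.05. With 1 probe set per gene the medians were 0.17 over 4 genes and 0.05 over 5 genes. The median deviation of the 4 maternally expressed genes from their mean over all embryos was -0.21, -0.06 and -0.01 in wild-type embryos 1, 2 and 3 and 0.12, 0.12 and -0.11 in Tcof1+/- embryos 1, 2 and 3. For the 5 paternally expressed genes it lay between -0.08 and 0.10. Over all tested probe sets in place of the brightest, the paternally expressed genes had -0.18 in wild-type embryo 1 and 0.16 in Tcof1+/- embryo 2, and the maternally expressed genes had -0.21 and 0.04 in the same embryos. The difference between the classes was not tested.

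Members that share a domain or a pathway were compared across the 6 embryos on their brightest probe sets, in 3 pairs. Dlk1 and Meg3 gave Pearson's r = -0.23 (exact permutation p = 0.664, adjusted 0.664) and Spearman's rho = -0.26 (exact permutation p = 0.658, adjusted 0.803). Igf2 and Igf2r gave r = 0.26 (exact permutation p = 0.664, adjusted 0.664) and rho = -0.14 (exact permutation p = 0.803, adjusted 0.803). Plagl1 and Igf2 gave r = 0.60 (exact permutation p = 0.200, adjusted 0.60) and rho = 0.60 (exact permutation p = 0.242, adjusted 0.725). None passed, where the smallest two-sided p that 720 pairings allow is 0.00278. Without the 2 embryos farthest from the median of the first gene, r was -0.63, -0.82 and 0.17, so that the sign for Igf2 and Igf2r rests on those embryos. The sizes moved with the scaling of the arrays: with equal array medians r was -0.82 (exact permutation p = 0.0542) for Dlk1 and Meg3, 0.56 for Igf2 and Igf2r and 0.71 for Plagl1 and Igf2, and with quantile normalization it was -0.17, 0.04 and 0.37. With genotype means removed it was -0.14, 0.01 and 0.52. Among the 4 embryos of the first scan day r was -0.40, 0.27 and 0.54, and the second day held too few embryos.

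The genes whose pattern over the 6 embryos was most like that of Igf2, by Pearson's r on the log2 scale among 12872 named genes, were Pla2g4c (0.990), Bik (0.988) and Capza1 (0.980). Igf2 itself moved within 1.12-fold, Pla2g4c within 1.31-fold, Bik within 2.13-fold and Capza1 within 1.09-fold. With 6 embryos and this many genes, values of that height are a description of these arrays only.

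Other imprinted genes were taken from 2 lists, each on its brightest probe set, where 0.124% of all 12873 named genes were called. Their parental class is that of the list. The arrays cannot show whether it holds in embryos of this stage. Of 31 other maternally expressed genes 21 were tested, 14 higher and 7 lower, with a median of 0.06; none passed in limma and 2 had an unadjusted p under 0.05. Cd81, a tetraspanin of the distal chromosome 7 cluster, was at 1321 ± 89.6 in wild types and 1626 ± 78.3 in Tcof1+/- embryos (SD, n = 3; log2 difference 0.30, SE 0.08, limma adjusted p = 0.578). Copg2, a coat protein gene beside Mest, differed by 0.19 (limma adjusted p = 0.827). Of 28 other paternally expressed genes 19 were tested, 12 higher and 7 lower, with a median of 0.09; none passed in limma and 1 had an unadjusted p under 0.05. Sgce, the epsilon-sarcoglycan, differed by 0.24 (limma adjusted p = 0.791), the amino acid transporter Slc38a4 by 0.13 (0.852) and Impact, a regulator of translation, by 0.13 (0.855). The median over all named genes was -0.01.

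The insulin-like growth factor axis around Igf2 and Grb10 was mostly lower, and none of its genes passed. Of 29 genes listed 23 were tested, 6 higher and 17 lower, with a median of -0.09 and 2 at an unadjusted p under 0.05 in limma. Of all 12873 named genes on their brightest probe sets, 6774 were lower. Whether the axis departed from that share was not tested. Irs4, an adaptor below the insulin and Igf receptors, was at 1089 ± 119 in wild types and 823 ± 86.4 in Tcof1+/- embryos (SD, n = 3; log2 difference -0.40, SE 0.11, limma adjusted p = 0.583). Igfbp2, which binds Igf proteins outside the cell, was at 888 ± 110 and 750 ± 20.7 (-0.24, limma adjusted p = 0.780). Pappa, a protease that releases Igf from its binding proteins, was at 49.0 ± 6.66 and 64.8 ± 3.83 (0.40, limma adjusted p = 0.799). The genotypes did not overlap on these 3 genes, nor on Igf1 (0.28) and Stc2 (-0.32), which were named after their values were seen. That is 5 of 23 genes. Of all tested probe sets 12.2% did not overlap, a share that counts every probe set and not 1 per gene.

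A list of factors that maintain imprints was read last. The list also holds Tet1 and Tet2, which act in removing DNA methylation, so its counts are not of maintenance alone. Of 23 listed 19 were tested, 14 higher and 5 lower, with a median of 0.06; none passed in limma and 2 had an unadjusted p under 0.05. Uhrf1, which brings the maintenance methyltransferase to replicating DNA, was at 1516 ± 115 in wild types and 1252 ± 115 in Tcof1+/- embryos (SD, n = 3; log2 difference -0.28, SE 0.09, limma adjusted p = 0.706). Eed, a Polycomb subunit, differed by 0.15 (limma adjusted p = 0.784), and Dnmt1, the maintenance methyltransferase itself, by -0.13 (limma adjusted p = 0.849). Zfp57, which protects imprints from erasure, and Dnmt3l, a cofactor of their establishment in germ cells, were not above background on any array.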

How the data were processed

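RNA from 6 embryos, 100 ng each, was amplified in 2 cycles and 20 µg of labelled cRNA was hybridised per array, per the labels' protocols. The authors deposited 1 linear signal intensity per probe set, made with GCOS per the submitters' processing notes; the labels name no algorithm or version. Other values (scan day, fluidics module) are per the file headers. Each module held arrays of 1 genotype, so its part cannot be told apart from that of genotype and was not tested. Signals were taken as log2(signal + 1.87), the 10th percentile of values that were not controls. The dimmest 40% by mean were left out and 27022 probe sets tested in limma 3.58.1 (eBayes with an intensity trend, two-sided) under R 4.3.3, with Benjamini-Hochberg adjustment over all of them and genotype as the sole term. The fit was tested on simulated data. Symbols came from the platform annotation: of 45037 probe sets, 34945 had 1 symbol, 932 several and 9160 none, and the RefSeq table changed 0. Members and lists were chosen with earlier results of these data known. Of each of the 4 pathway lists beyond the members, the 3 genes with the smallest p are named. Igf1, Stc2 and Mirg were added after their values were seen. Marker lists are given by counts and some of them also by summed signal, with Afp, Plac1, Rhox5, Elf5 and genes not above background named as examples. The labels call the embryos biological replicates. Precision is limited by 3 arrays per genotype. The planned pair of H19 and Igf2, and the genes most like H19, were left out because H19 had no probe set under the rule. Alternatives were other pseudocounts, scalings, filters and variance priors, array weights, replicate or scan day as a block, and each array left out. Figures used matplotlib 3.10.9.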

Additional observations from a re-analysis of the deposited data

How the results depend on the processing

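Over all tested probe sets the 22 calls became 0 with no intensity trend and 8 to 20 when 1 array was left out. Without an array the counts were 8 (wild-type embryo 1), 11 (wild-type embryo 2), 11 (wild-type embryo 3), 14 (Tcof1+/- embryo 1), 12 (Tcof1+/- embryo 2) and 20 (Tcof1+/- embryo 3). Replicate number as a block left 10 calls; same-numbered embryos did not deviate together (r = -0.08, -0.11 and -0.02), so the numbers were not taken as pairs. No member passed under any of 16 alternatives, with a smallest adjusted p in limma of 0.218 to 0.750. Of 428 recomputed member differences 416 kept their sign. Other filters, no intensity trend, and replicate or scan day as a block left the differences themselves unchanged. Signs could not turn under those alternatives, although they are counted in the 428. Mest turned to -0.025 under quantile normalization. Leaving out 1 array turned the sign on 7 probe sets, with ranges of -0.53 to 0.072 for Igf2 1415931_at, -0.0014 to 0.25 for Igf2r 1424111_at, -0.18 to 0.016 for Cdkn1c, -0.26 to 0.11 for Dlk1 1449939_s_at, -0.12 to 0.11 for Meg3 1436713_s_at, -0.021 to 0.14 for Meg3 1428765_at and -0.26 to 0.26 for Plagl1 1438588_at. The causes were not tested. With the dimmest 60% left out, 23 of the 27 probe sets could be tested. Values for H19 were not computed, since it had no probe set under the rule. Signals near background limit the dim probe sets, where standard errors reached 0.41.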
